A study of Mus musculus with 12 samples.

Results

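The genes described here are 38 interferon-response and antigen-processing genes, read by Illumina bead arrays in mouse colon. They form a list of named genes drawn up with earlier results of these data known, sorted by textbook interferon biology, 23 as type I interferon genes and 15 as interferon-gamma type genes. The platform's probe table named 67 probes for 37 of them, and no probe was named for Ifi44. Probes with a detection p (the chance of such a signal from background) below 0.05 on 3 or more of the 12 arrays were kept. By that rule 53 probes of 32 genes were kept, 19 of the 23 type I genes and 13 of the 15 interferon-gamma type genes, among 11933 genes in all. Of the 32 genes, 27 were detected on all 12 arrays. Irf1, Gbp2, Tap1, Psmb9 and Cxcl10 are known to answer both kinds of interferon, so the split into classes is a textbook sorting and not a clean partition.

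The colon came from male mice labelled 7 to 8 weeks of age, in 4 groups of 3 arrays. Control mice carry no treatment in the labels, and DSS mice were given dextran sulfate sodium, which damages the gut epithelium and brings on colitis. The remaining groups, DAPP before DSS and DAPP during DSS, received DSS too, with DAPP (the labels' name; the title of the series speaks of apple peel polyphenols) before it or during it. The column names carry 200 for the first and 400 for the second with no unit, so timing and that number cannot be told apart. The sources used here do not state strain, vehicle or schedule. The labels call the arrays of a group biological replicates, and the p-values measure the spread between them. All levels below are normalised log2 intensities, a difference of 1 being a doubling, and levels of different probes are not compared.

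Type I interferons (the alpha family and beta) act through the receptor chains Ifnar1 and Ifnar2 and the kinases Jak1 and Tyk2, and bring Stat2 and Irf9 to the interferon-stimulated response element (ISRE), which turns on antiviral genes. Interferon gamma, made mainly by T and natural killer cells, acts through Ifngr1 and Ifngr2 and on genes that carry the gamma-activated site (GAS). Its known outputs include chemokines that draw T cells, guanylate-binding and immunity-related GTPases, and the machinery that cuts proteins and loads the peptides on major histocompatibility complex (MHC) class I molecules.

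The promoters of the members were read from RefSeq (GRCm38.p6) as windows of 300 bases, 250 before to 50 after each gene's start, because both elements usually lie there. A window was in the table for 29 of the 38 members, with none for Usp18, Ido1, Oas2, Dhx58, Mx1, Mx2, Tap2 and Cxcl11, and none is printed for Iigp1. The ISRE letters searched were GAAANNGAAA and, for the other strand, TTTCNNTTTC, and the GAS letters were TTCNNNGAA, which read the same on both strands. The ISRE letters stood in windows of 15 of the 29 members, 10 of 18 type I genes and 5 of 11 interferon-gamma type genes, against 3.99% of all 27025 genes in the table. The GAS letters stood in windows of 8 of the 29 members, 5 of 18 and 3 of 11, against 9.55% of all genes. A match is a match of letters and shows no binding. Matches to both elements overlapped in Bst2. The windows below are shown because they belong to members whose values carry the results, with each match in capitals.

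The window of Igtp (chromosome 11, plus strand, chr11:58199306-58199605) holds a GAS match that begins 45 bases before the start and an ISRE match that begins 34 bases before it.
Igtp: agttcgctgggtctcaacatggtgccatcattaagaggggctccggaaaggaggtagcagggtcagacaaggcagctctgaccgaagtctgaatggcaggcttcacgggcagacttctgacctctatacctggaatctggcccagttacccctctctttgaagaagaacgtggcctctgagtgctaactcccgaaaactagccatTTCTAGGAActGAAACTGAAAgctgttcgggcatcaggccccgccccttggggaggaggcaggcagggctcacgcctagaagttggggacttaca
The window of Psmb8 (chromosome 17, plus strand, chr17:34197945-34198244) holds a GAS match, 97 bases before the start.
Psmb8: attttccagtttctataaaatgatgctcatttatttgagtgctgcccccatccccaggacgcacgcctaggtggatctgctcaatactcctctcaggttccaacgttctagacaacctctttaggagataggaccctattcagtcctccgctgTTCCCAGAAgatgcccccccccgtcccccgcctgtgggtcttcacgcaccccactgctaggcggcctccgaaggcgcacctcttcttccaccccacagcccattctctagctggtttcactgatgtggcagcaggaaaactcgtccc
The first window of Ifit2 (chromosome 19, plus strand, chr19:34550444-34550743) holds a GAS match, 241 bases before the start, and the window of its other start holds neither element.
Ifit2: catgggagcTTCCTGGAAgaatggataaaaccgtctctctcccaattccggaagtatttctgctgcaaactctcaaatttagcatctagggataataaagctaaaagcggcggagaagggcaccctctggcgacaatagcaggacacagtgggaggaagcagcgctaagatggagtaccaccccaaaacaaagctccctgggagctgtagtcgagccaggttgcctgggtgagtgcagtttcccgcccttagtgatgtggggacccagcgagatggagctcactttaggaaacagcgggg
The window of Isg15 (chromosome 4, minus strand, chr4:156200769-156201068) holds 3 overlapping ISRE matches in a row, the first 78 bases before the start.
Isg15: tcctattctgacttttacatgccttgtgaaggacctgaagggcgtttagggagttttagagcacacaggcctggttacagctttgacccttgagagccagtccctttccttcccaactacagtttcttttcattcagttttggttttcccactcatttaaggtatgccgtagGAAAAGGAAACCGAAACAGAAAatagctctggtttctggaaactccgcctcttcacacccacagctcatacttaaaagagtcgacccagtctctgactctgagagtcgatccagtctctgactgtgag
The window of Ifit3 (chromosome 19, plus strand, chr19:34583279-34583578) holds 2 ISRE matches, 156 and 122 bases before the start.
Ifit3: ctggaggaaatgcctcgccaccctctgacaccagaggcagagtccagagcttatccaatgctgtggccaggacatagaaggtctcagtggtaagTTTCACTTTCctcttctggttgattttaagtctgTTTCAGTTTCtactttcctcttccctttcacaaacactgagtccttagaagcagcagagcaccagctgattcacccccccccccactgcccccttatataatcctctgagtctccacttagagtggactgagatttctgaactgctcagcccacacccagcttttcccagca
The window of Cxcl10 (chromosome 5, minus strand, chr5:92348840-92349139) holds an ISRE match, 213 bases before the start.
Cxcl10: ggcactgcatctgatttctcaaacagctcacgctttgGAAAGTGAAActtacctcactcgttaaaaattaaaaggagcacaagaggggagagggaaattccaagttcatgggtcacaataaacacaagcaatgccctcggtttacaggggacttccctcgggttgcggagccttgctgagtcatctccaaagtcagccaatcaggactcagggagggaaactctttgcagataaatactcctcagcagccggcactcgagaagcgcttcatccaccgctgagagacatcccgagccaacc
The windows of Cxcl9 (chromosome 5, minus strand, chr5:92328030-92328329) and Tap1 (chromosome 17, plus strand, chr17:34187306-34187605) hold neither set of letters.
Cxcl9: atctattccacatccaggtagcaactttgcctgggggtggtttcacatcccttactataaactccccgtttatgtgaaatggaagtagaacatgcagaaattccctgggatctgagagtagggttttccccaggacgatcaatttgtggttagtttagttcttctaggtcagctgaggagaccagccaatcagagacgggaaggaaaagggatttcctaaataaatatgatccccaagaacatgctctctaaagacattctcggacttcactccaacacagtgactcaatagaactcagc
Tap1: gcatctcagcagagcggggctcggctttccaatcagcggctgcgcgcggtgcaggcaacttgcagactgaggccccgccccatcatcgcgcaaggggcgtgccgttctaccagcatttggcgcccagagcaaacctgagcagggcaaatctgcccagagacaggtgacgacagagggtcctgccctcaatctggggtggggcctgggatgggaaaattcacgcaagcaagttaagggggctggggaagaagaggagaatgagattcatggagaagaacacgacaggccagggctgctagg
Psmb9 starts 226 bases from Tap1 on the opposite strand, and their windows share 275 bases, so this stretch is the promoter window of both genes.

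Before the results, some arrays stand apart. Between 17650 and 21444 probes were detected per array, and raw signal averaged 433.3 to 507.2 without DAPP and 601.0 to 728.3 with it, so signal and DAPP cannot be told apart. For replicate 1 of DAPP before DSS the correlations with other arrays were 0.828 to 0.914, while all other pairs gave 0.916 to 0.984. Colon epithelial markers were detected on all 12 arrays for 14 of 15 genes. Their mean level was 10.95 on replicate 1 of DAPP before DSS and 11.73 to 12.64 on the other arrays. That replicate also had the highest mean of the B and plasma cell markers (9.77) and of the T and natural killer cell markers (8.61). Exocrine pancreas transcripts, a list of 14 measured genes, had a mean level of 6.14 to 8.98 on the 3 control arrays, DSS replicate 1 and replicates 1 and 2 of DAPP during DSS, and of 12.45 to 14.37 on the other 6 arrays. Counts below are also given without the arrays that changed them.

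In DSS colitis, 8 of the 32 measured members rose against control and none fell. The rises came from 6 of the 13 interferon-gamma type genes (Ido1, Cxcl9, Igtp, Tap1, Psmb8 and Psmb9) and from 2 of the 19 type I genes (Ifit2 and Usp18), with 3.91% of all 11933 genes higher and 6.71% changed in either direction. The largest rises among the members were those of Ido1 and Cxcl9, at 43.0-fold and 38.1-fold. The median difference was 1.64 over the interferon-gamma type genes and 0.58 over the type I genes (0.53 with undetected genes at their bound), beside -0.04 over all genes. DSS and control arrays did not overlap, with DSS higher, for 11 of 13 and 7 of 19 members, beside 13.8% of all genes (the 7 include Mx2, whose readings were mostly at background). The 7 also include Oas2, undetected on the control arrays, which passed the detection filter only through the DSS-treated groups. Members were higher by any amount in 13 of 13 and 16 of 19 cases, beside 45.5% of all genes. An unadjusted p under 0.05 was reached by 15 of the 32, beside 19.7% of all genes. Tests are limma's moderated test over all genes with Benjamini-Hochberg adjustment, errors of differences are standard errors, and n is 3 per group. In whole tissue, more cells of a type and more RNA per cell cannot be told apart.

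**Figure D1:**
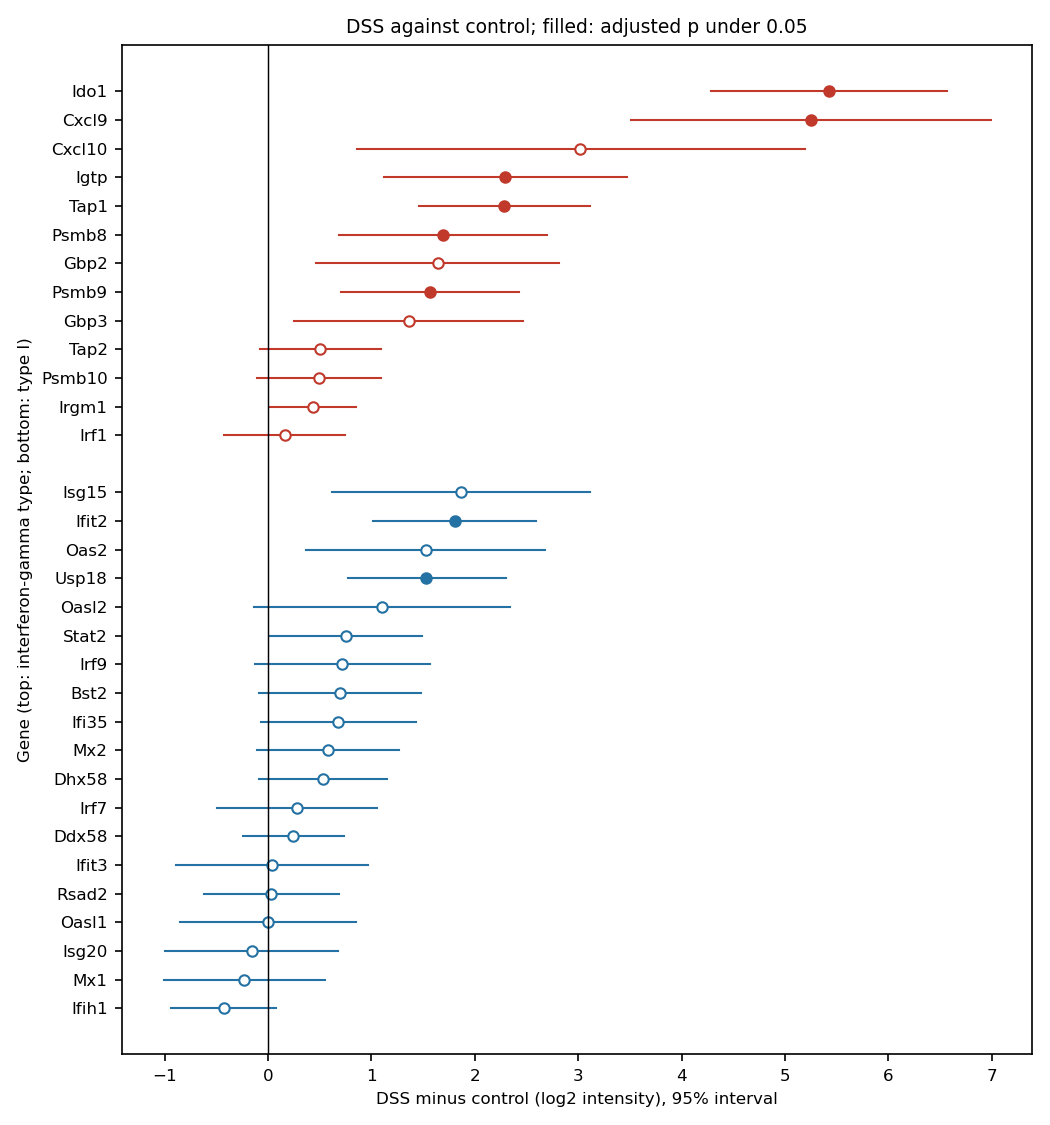
The plot gives the difference of DSS minus control (log2 intensity, horizontal axis) with its 95% interval for each of the 32 measured members, interferon-gamma type genes in red above and type I genes in blue below. Filled points passed an adjusted p of 0.05. Ido1 and Cxcl9 lie above 5, and most type I genes lie between -0.43 and 1.10.

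Among the interferon-gamma type genes, Ido1 encodes indoleamine 2,3-dioxygenase, which breaks down tryptophan. Its level was 6.86, 7.44 and 7.12 on the control arrays and 13.26, 12.38 and 12.07 on the DSS arrays. In the DAPP groups it was 11.37, 12.19 and 12.51 (before) and 10.39, 12.63 and 12.28 (during). Every array of a DSS-treated group was thus far above all 3 control arrays, and the lowest of the 9 was replicate 1 of DAPP during DSS. The difference of DSS from control was 5.43 ± 0.53 (adjusted p = 7.84e-05).

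Cxcl9, a chemokine for T cells whose induction depends largely on interferon gamma, stood at 6.15, 5.73 and 5.60 in control and 12.63, 11.12 and 9.49 in DSS. With DAPP it stood at 10.63, 9.87 and 11.76 (before) and 8.97, 11.35 and 11.55 (during). The 9 DSS-treated arrays spread widely but did not overlap control, and DSS differed from control by 5.25 ± 0.80 (adjusted p = 0.00197). Cxcl10, its relative with an ISRE match in the window above, stood at 4.75, 5.80 and 5.07 in control and 9.77, 8.22 and 6.70 in DSS. The DSS arrays lay above control, but their spread was large, and the difference of 3.02 ± 0.99 missed the threshold (adjusted p = 0.1). On replicate 1 of DAPP before DSS, Cxcl10 was 4.80 by this probe and 6.60 by its other probe, so the probes place that array differently. Both probes of Cxcl11, the third chemokine of this family, were detected on no array.

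Tap1, a chain of the transporter that carries peptides to MHC class I molecules, stood at 5.93, 5.88 and 6.15 in control and 9.06, 7.84 and 7.90 in DSS. It stood at 7.33, 7.83 and 8.27 with DAPP before DSS and at 7.06, 8.00 and 8.13 with DAPP during DSS. Control and the DSS-treated arrays were separated by about a log2 unit, and DSS exceeded control by 2.28 ± 0.38 (adjusted p = 0.00333). Tap2, the other chain, went from 9.52 ± 0.05 (SD, n = 3) to 10.02 ± 0.26, a difference of 0.50 ± 0.27 that missed the threshold (adjusted p = 0.344), although all 9 DSS-treated arrays lay above control.

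Of the inducible proteasome subunits, Psmb8 stood at 10.02, 10.48 and 10.37 in control and at 12.51, 11.70 and 11.73 in DSS. Its DSS arrays were all higher, by 1.69 ± 0.46 on average (adjusted p = 0.0489), and it stood at 10.44, 11.78 and 12.26 (before) and 10.91, 12.13 and 12.22 (during) with DAPP, where replicate 1 of DAPP before DSS lay among the controls. Psmb9, which shares its promoter window with Tap1, stood at 9.42, 9.79 and 9.77 in control and 11.99, 10.79 and 10.91 in DSS, a rise of 1.57 ± 0.39 (adjusted p = 0.0328). With DAPP, Psmb9 stood at 11.63, 10.93 and 11.71 (before) and 10.19, 11.47 and 11.37 (during), so all 9 DSS-treated arrays lay above control. Psmb10, the remaining subunit, differed by 0.49 ± 0.27 (adjusted p = 0.366). The constitutive proteasome genes gave 0 of 11 calls by limma (0 at an unadjusted p under 0.05) and a median of 0.26. Of the MHC class I and peptide-loading genes outside the members, 1 of 14 passed as higher, beside 3.91% of all genes. This was H2-Q6 (1.94 ± 0.42, adjusted p = 0.0148), whose family holds near-identical copies that a probe may not separate. The median over the 14 was 0.55, and 12 of 14 were higher by any amount, beside 45.5% of all genes. DSS arrays lay above control without overlap for 10 of 14, beside 13.8% of all genes. An unadjusted p under 0.05 was reached by 5 of 14, beside 19.7% of all genes. B2m, the light chain of class I molecules, differed by 0.61 ± 0.20 (adjusted p = 0.1).

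Igtp, an immunity-related GTPase with both elements in its window, stood at 8.13, 8.27 and 8.13 in control and 11.62, 10.14 and 9.66 in DSS, and rose by 2.29 ± 0.54 (adjusted p = 0.0236). Its level with DAPP was 9.57, 10.13 and 11.29 (before) and 9.34, 10.83 and 10.16 (during), all above control. Gbp2, a guanylate-binding protein, lay at 10.34 to 10.40 on the control arrays and at 11.22 to 13.04 on the DSS arrays. The difference of 1.64 ± 0.54 for Gbp2 missed the threshold (adjusted p = 0.101), with every DSS-treated array above control. Gbp3 differed by 1.36 ± 0.51 (adjusted p = 0.155) and Irgm1 by 0.43 ± 0.19 (adjusted p = 0.243). The probes of Iigp1, a further GTPase of this kind, were detected on at most 1 array each. Irf1, the transcription factor that relays interferon gamma, was at 12.96 ± 0.18 in control and 13.12 ± 0.28 in DSS. Its 5 kept probes gave differences of -0.13 to 0.53, so they disagree in sign, as did the 3 probes of Oasl1.

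Turning to the type I genes, Ifit2, an antiviral protein that binds RNA, stood at 7.70, 7.42 and 7.39 in control and 10.13, 8.93 and 8.88 in DSS. With DAPP it stood at 8.92, 8.67 and 8.97 (before) and 8.46, 9.46 and 9.60 (during), so none of the 9 DSS-treated arrays overlapped control. Its rise in DSS was 1.81 ± 0.36 (adjusted p = 0.01), and its second probe gave 1.86. Usp18, which removes Isg15 from proteins and dampens the type I receptor, stood at 7.54, 7.79 and 7.32 in control and 9.45, 9.32 and 8.48 in DSS. The rise of 1.53 ± 0.35 passed the threshold (adjusted p = 0.02). With DAPP, Usp18 stood at 8.79, 8.73 and 9.48 (before) and 7.79, 8.95 and 8.69 (during), and the lowest of these equalled the highest control value.

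The other type I members did not pass the test. Isg15, a ubiquitin-like protein whose window holds the row of ISRE matches, stood at 7.08, 8.48 and 7.28 in control and 10.40, 8.36 and 9.69 in DSS, so the groups overlapped at 1 array, and the difference was 1.87 ± 0.57 (adjusted p = 0.0774). Oas2, of the RNA-sensing synthetases, was undetected on the control arrays, and DSS exceeded control at least 2.28-fold (adjusted p = 0.123), with all 9 DSS-treated arrays above control. Ifit3, next to Ifit2 on chromosome 19 and with 2 ISRE matches, stood at 8.80, 9.25 and 8.91 in control and 9.82, 8.48 and 8.77 in DSS. That is a difference of 0.04 ± 0.43, with a 95% interval of -0.89 to 0.97. Rsad2 (viperin) differed by 0.03 ± 0.30 with an interval of -0.62 to 0.69, and Irf7, the amplifier of the type I response, by 0.28 ± 0.35 with an interval of -0.49 to 1.05.

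Of the factors that act at the ISRE, Stat2 differed by 0.75 ± 0.34 (adjusted p = 0.244) and Irf9 by 0.72 ± 0.39 (adjusted p = 0.348). The sensors of viral RNA gave small differences, 0.24 ± 0.22 for Ddx58 (RIG-I), -0.43 ± 0.23 for Ifih1 (MDA5) and 0.53 ± 0.28 for Dhx58. Ifih1 was detected on 4 arrays, of which 1 was a control array and 0 were DSS arrays, and its fold is at least 1.07. Oasl2 (1.10), Bst2 (0.70) and Ifi35 (0.68) were also positive, with adjusted p of 0.307 to 0.32. Mx2 was detected on no control array and 1 DSS array, with a DSS mean below the detection floor, so no difference is given for it. Isg20 and Oasl1 differed by -0.16 and 0.00. Mx1 (-0.23) was detected on 1 control array and 0 DSS arrays, so its difference compares readings mostly at background. Mx1 and Mx2 are annotated as transcribed pseudogenes in the reference strain. Of the 3 unmeasured type I genes with a probe, Ifit1 and Oas3 were detected on no array and Oas1a on 2.

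With no detection filter, where every member with a probe counts, the median was 0.41 over 22 type I genes and 1.57 over 15 interferon-gamma type genes, and 2 and 4 passed, beside 2.24% of the 19057 genes higher in that fit. Among the 6 members that rose and have a window, 1 holds an ISRE match and 3 a GAS match, and 3 hold neither. Among the 19 measured members that did not rise and have a window, 11 hold an ISRE match and 4 a GAS match.

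**Figure D2:**
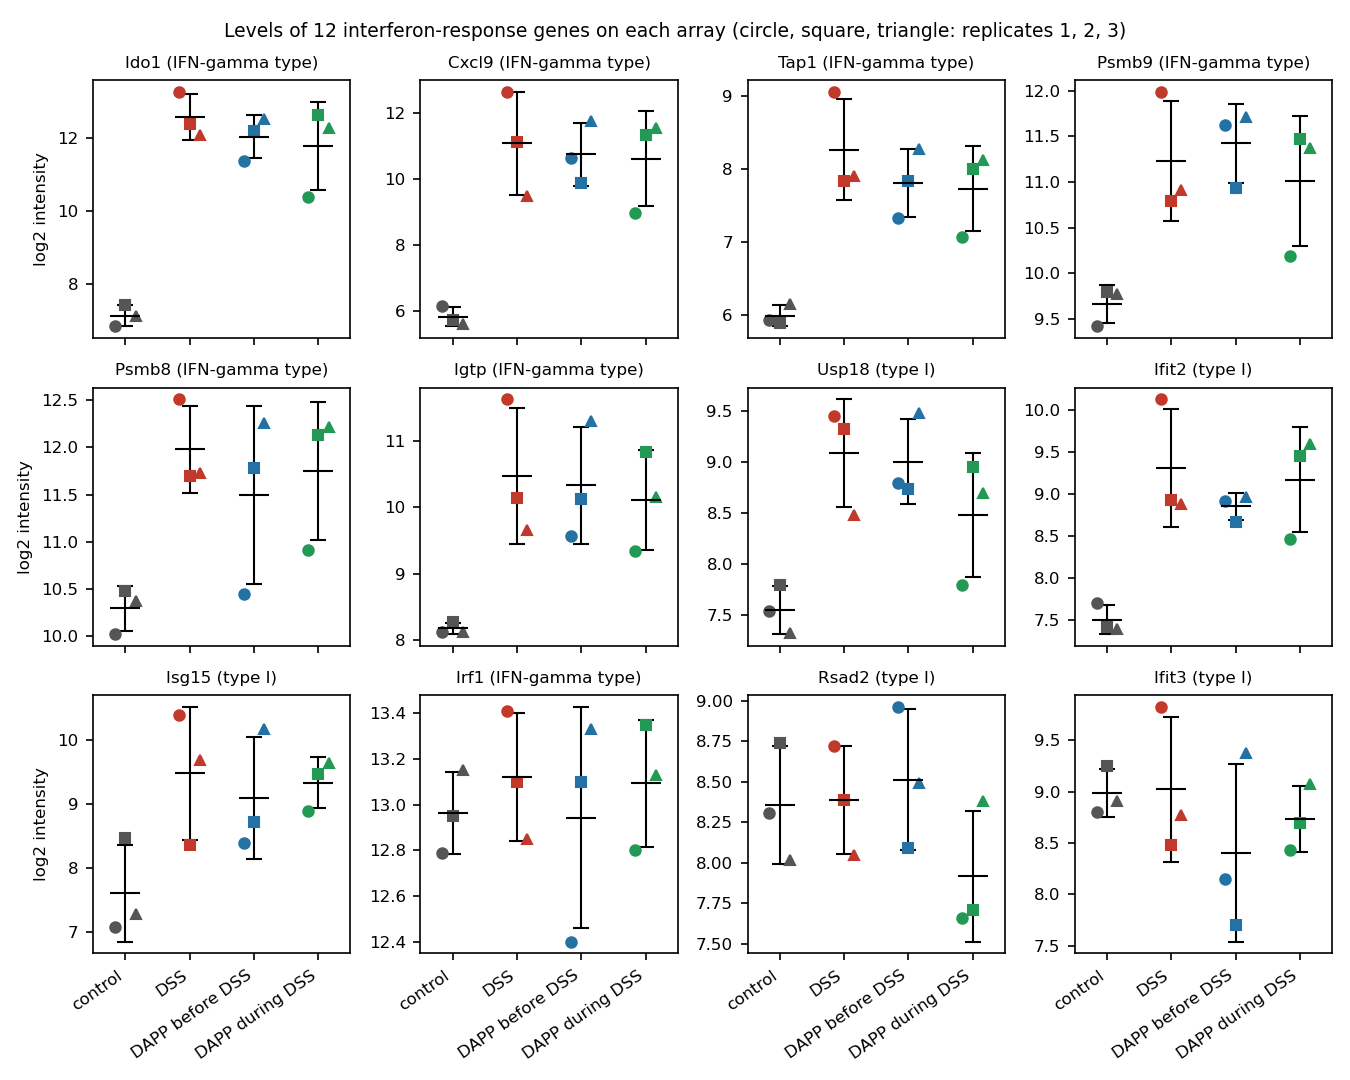
Each panel gives the log2 intensity (vertical axis, a separate range in each panel) of 1 gene on the 12 arrays by group, with circles, squares and triangles for replicates 1, 2 and 3 and bars for the mean and SD of 3 arrays. Ido1, Cxcl9, Tap1, Psmb9, Igtp and Ifit2 lie above control on all 9 DSS-treated arrays, while the groups overlap for Irf1, Rsad2 and Ifit3.

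The rises of Ido1, Cxcl9, Tap1 and Ifit2 passed in each fit that left out 1 of the 12 arrays. The count of 8 fell to 4 without control replicate 1, to 5 without control replicate 2, to 4 without control replicate 3 and to 4 without DSS replicate 1. In these fits the calls over all genes dropped too, from 6.71% to between 3.60% and 4.13%. The count rose to 12 without replicate 1 of DAPP before DSS, with Isg15, Irf9, Gbp2 and Cxcl10 added, where 12.8% of all genes were called. DSS replicate 1 was the highest DSS array for all 32 members, beside 33.8% of all genes. Without it the medians were 1.19 and 0.34, and Usp18, Igtp, Psmb8 and Psmb9 had adjusted p of 0.096 to 0.191. That array also had the lowest pancreas list mean of the DSS arrays, at 6.50 against 13.43 and 14.05, and with this mean as a covariate the medians were 1.92 and 0.69.

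Of the interferons, Ifng was detected on no control array and on all 3 DSS arrays, at 6.77, 5.71 and 5.58, at least 1.41-fold higher (adjusted p = 0.0945). In each DAPP group it was detected on 1 of 3 arrays. Ifnb1, Ifnl3 and the receptor chain Ifnar1 were detected on no array. Ifna1 differed by -0.64 ± 0.21 (adjusted p = 0.0933), Ifna6 by 0.01 ± 0.36 and Ifnab by 0.31 ± 0.24, and these near-identical genes may share probe signal. Ifnar2, a receptor chain for type I interferons, stood at 5.31, 5.64 and 5.95 in control and 7.23, 7.15 and 7.09 in DSS, and rose by 1.52 ± 0.21 (adjusted p = 0.000868). It was higher again with DAPP, at 7.59 to 7.95 (before) and 7.58 to 7.86 (during), without overlap with DSS, though the differences of 0.62 and 0.58 missed the threshold (adjusted p = 0.851 and 1). Ifngr1, Ifngr2, Ifnlr1 and Il10rb, the other receptor chains, differed by -0.63 to 0.01, and the kinases Jak1, Jak2 and Tyk2 by 0.05 to 0.37.

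Of 17 signalling genes and regulators, 2 rose: Nlrc5, the activator of class I genes, undetected in control and at least 4.13-fold above it in DSS (adjusted p = 0.0131), and Irf8 (0.92 ± 0.23, adjusted p = 0.0338). Further type I targets outside the members gave 3 of 23 rises, Ifitm1 (1.87 ± 0.30, adjusted p = 0.00296), Ifitm3 (1.60 ± 0.33, adjusted p = 0.0126) and Lgals9 (1.69 ± 0.44, adjusted p = 0.0384), and a median of 0.50. Further interferon-gamma targets gave 5 of 15 rises and a median of 1.20, led by Socs3 (4.09 ± 0.33, adjusted p = 2.08e-05), Ubd (3.25 ± 0.46, adjusted p = 0.00113) and Fcgr1 (at least 3.68-fold, adjusted p = 0.0033). Several of these genes, such as Socs3, also answer other cytokines. The counts of these 3 lists stand beside 3.91% of all genes higher in DSS.

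Markers of several immune cell types were also higher in DSS, and others were not. The T and natural killer cell list gave 4 rises of 9 measured genes (median 1.56), beside 3.91% of all genes higher. Among the 4 were Icos (1.93 ± 0.28, adjusted p = 0.00154) and Cd3e (2.04 ± 0.37, adjusted p = 0.00571). By any amount 7 of the 9 were higher, beside 45.5% of all genes, and 2 were lower, Cd8b1 and Prf1. The mean level of the list was 6.45 to 6.95 on the control arrays, 7.42 to 8.21 in DSS, 7.64 to 8.61 with DAPP before DSS and 7.39 to 7.84 with DAPP during DSS. Within DAPP before DSS this mean was highest on replicate 1 (8.61), where the interferon-gamma type mean was lowest (10.24). Of the list's genes, Cd3e was detected on 10 arrays, Cd3d and Cd3g on 11, and Cd8b1 and Prf1 on all 12. Icos and Cd3e were each detected on 1 of 3 control arrays, so their control readings were mostly at background. Cd8b1 stood at 10.97, 10.98 and 10.98 in control and 10.88, 9.94 and 11.15 in DSS. Prf1 stood at 10.34, 10.78 and 10.46 in control and 10.38, 10.76 and 9.94 in DSS. Cd4, Cd8a, Ncr1, Gzmb and Tbx21 were detected on no array. The macrophage list gave 8 rises of 13, with means of 8.22 to 8.50 in control and 9.29 to 10.12 in DSS. The neutrophil list gave 10 of 12, with means of 5.24 to 5.42 and 8.52 to 9.93. Both counts stand beside 3.91% of all genes higher. The gene list of plasmacytoid dendritic cells, a known source of type I interferon, gave 0 of 6 by limma (2 at an unadjusted p under 0.05, median -0.31), with means of 8.38 to 8.65 and 8.20 to 8.53. Of that list, Ccr9 was detected on no array, while Klk1 stood at 14.23 to 14.64 and Tcf4 at 11.42 to 11.75 in control. How far the list reads these cells in whole colon was not tested. B and plasma cell genes gave 0 of 4 by limma (0 at an unadjusted p under 0.05) and a median of -0.08. The smooth muscle list fell in 9 of 11 genes, beside 6.71% of all genes changed in either direction. The part of these cells in the interferon values was not tested.

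The DAPP groups were also compared with control. In DAPP before DSS, 7 members were higher than control (Ifit2, Usp18, Igtp, Tap1, Psmb9, Cxcl9 and Ido1), beside 6.27% of all genes higher, with medians of 1.47 and 0.54 for the interferon-gamma type and type I genes (type I 0.38 with undetected genes at their bound). In DAPP during DSS, 5 were (Ifit2, Igtp, Tap1, Cxcl9 and Ido1), beside 4.53% of all genes, with medians of 1.47 and 0.32 (type I 0.26 with bounds). These comparisons use the same control arrays as the one above. Against control, Ido1 was higher by 5.43 in DSS, 4.88 in DAPP before DSS and 4.63 in DAPP during DSS, and Cxcl9 by 5.25, 4.93 and 4.80. Psmb8 differed by 1.21 ± 0.46 (adjusted p = 0.118) and 1.47 ± 0.46 (adjusted p = 0.0791) in the DAPP groups. On all 9 DSS-treated arrays, 7 of 13 interferon-gamma type genes and 3 of 19 type I genes (Ifit2, Oas2 and Mx2) exceeded every control array, beside 8.06% of all genes. Mx2 was undetected on all control arrays and on 2 of 3 DSS arrays, so its place in that count compares readings at background. Oas2 was undetected on all control arrays and detected on all 9 others. It passed the detection filter only through the groups where it is high, so its place in that count is no separate support.

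Single arrays moved these counts. For DAPP before DSS the count of 7 became 3 without control replicate 1, 4 without control replicate 3, 11 without its own replicate 1 and 4 without its own replicate 3, where the interferon-gamma type median was 0.84 and the type I median 0.28. Calls over all genes ran from 6.50% to 12.9% over the fits that left out 1 array. For DAPP during DSS the count of 5 became 3, 2 and 3 without control replicates 1, 2 and 3, 2 without its own replicate 2 and 2 without its own replicate 3. It became 13 without replicate 1 of DAPP before DSS, an array of neither group, which enters through the shared spread. Calls over all genes ran from 3.71% to 14.4% over these fits. The members' counts did not always follow the number of calls in all. Without replicate 1 of DAPP during DSS, 7 members were called against control in that group, while calls over all genes fell from 917 to 610. For DAPP before DSS without its own replicate 3, 4 members were called, while calls over all genes rose from 1338 to 1381. The type I median of 0.32 became 0.53 without replicate 1 of DAPP during DSS and 0.21 without its replicate 2. Ido1 and Cxcl9 passed in every one of these fits.

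The comparison of each DAPP group with DSS asks whether DAPP brought these genes toward control, and no member passed in either. No gene of the 11933 passed in either comparison (0%), where an unadjusted p under 0.05 was reached by 4.48% of all genes with DAPP before DSS and 2.66% with DAPP during DSS, and by 0 of the 32 members in both. The median differences from DSS were -0.21 and -0.22 for the interferon-gamma type genes and -0.01 and -0.04 for the type I genes, with a median of 0 over all genes. Ido1 differed from DSS by -0.54 (95% interval -1.69 to 0.60) with DAPP before DSS and by -0.80 (-1.95 to 0.35) with DAPP during DSS. Cxcl9 differed by -0.33 (-2.07 to 1.42) and -0.45 (-2.20 to 1.29), and Tap1 by -0.46 (-1.28 to 0.37) and -0.54 (-1.36 to 0.28). The 95% intervals of all 32 members included 0 in both comparisons, and they were 0.84 to 4.32 wide, so differences of the size seen for many members could not be resolved.

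**Figure D3:**
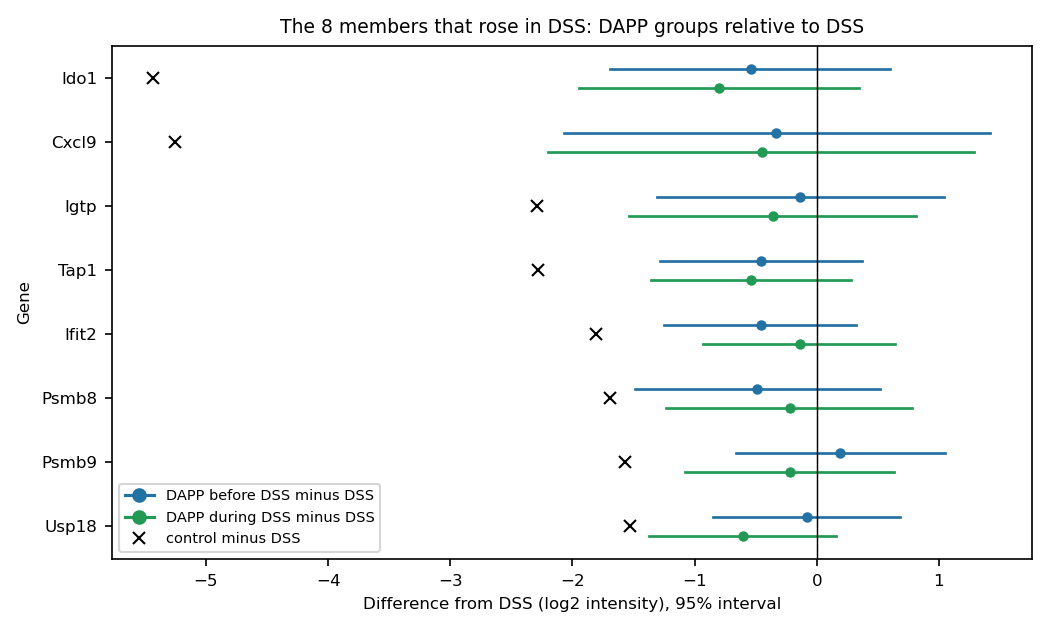
For the 8 members that rose in DSS, the horizontal axis gives the difference from DSS (log2 intensity) of DAPP before DSS (blue) and DAPP during DSS (green) with 95% intervals, and crosses mark the control mean, whose own error is not drawn. All intervals include 0, and the crosses lie to the left of them. The 8 genes were chosen for their rise on these same DSS arrays, so the place of the crosses is no test of DAPP.

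With DAPP during DSS, all 13 interferon-gamma type genes had a mean below DSS (49.5% of all genes did), with differences of -0.80 for Ido1 to -0.01 for the smallest, and all share the same 6 arrays. This rested on single arrays: without DSS replicate 1 the median was 0.12, and without replicate 1 of DAPP during DSS it was 0.10. For DAPP before DSS the median was 0.03 without DSS replicate 1 and 0.04 without its own replicate 1. The type I medians turned positive as well, to 0.16 and 0.27 without DSS replicate 1, to 0.07 and 0.01 without replicates 1 and 2 of DAPP before DSS and to 0.12 without replicate 1 of DAPP during DSS. Ifng, which is no member, was lower with DAPP during DSS by -0.87 ± 0.40 (unadjusted p = 0.0487, adjusted p = 1). It was detected on 1 of 3 arrays there, with readings from 4.72 to 5.72, so its mean in that group rests mostly on background readings. The DSS mean was raised by replicate 1, at 6.77 against 5.71 and 5.58. With DAPP before DSS, Ifng was also detected on 1 of 3 arrays, with readings of 5.26, 4.81 and 6.14.

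The DAPP groups were then compared with each other, and again no member and no gene passed (0%), while 4.06% of all genes had an unadjusted p under 0.05. Among the members, Ifih1 was lower with DAPP before DSS by -0.67 ± 0.23 (unadjusted p = 0.0143) and Bst2, the membrane tether of viruses, higher by 0.90 ± 0.36 (unadjusted p = 0.0285), both with an adjusted p = 0.842. Ifih1 was detected on no array of the first group and all 3 of the second, and its fold is at least 1.03. The medians were -0.15 for type I (-0.06 with bounds) and 0.05 for interferon-gamma type genes, and their signs turned with single arrays. The type I median was 0.11 without replicate 1 of DAPP before DSS, and the interferon-gamma type median was -0.26 without its replicate 3 and -0.30 without replicate 1 of DAPP during DSS.

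In each DSS-treated group, 1 array stood at an extreme for many of the members. Of the 9 DSS-treated arrays, DSS replicate 1 was the highest for 12 of 13 interferon-gamma type genes and 9 of 19 type I genes. Replicate 3 was the highest DAPP before DSS array for 13 of 13 and 14 of 19 members, beside 29.2% of all genes. Replicate 1 was the lowest DAPP during DSS array for 12 of 13 and 18 of 19, beside 36.5% of all genes. The mean over the 13 interferon-gamma type genes was 9.01 to 9.27 on the control arrays. It was 11.93, 10.99 and 10.51 in DSS, 10.24, 10.75 and 11.57 with DAPP before DSS and 10.13, 11.29 and 11.21 with DAPP during DSS, so DSS-treated arrays of 1 group differed by over a log2 unit. The pancreas list mean was 14.02, 12.45 and 13.29 on the DAPP before DSS arrays and 8.98, 6.14 and 14.37 on the DAPP during DSS arrays. Replicate 3 of DAPP during DSS had the highest pancreas mean of the 12 arrays and an interferon-gamma type mean of 11.21, near the top of its group. In DSS, the pancreas means were 6.50, 13.43 and 14.05, in the reverse order of the interferon-gamma type means. In DAPP before DSS, replicate 1 had the highest pancreas mean (14.02) and the lowest interferon-gamma type mean (10.24). A link between the pancreas and interferon values was not tested.

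**Figure D4:**
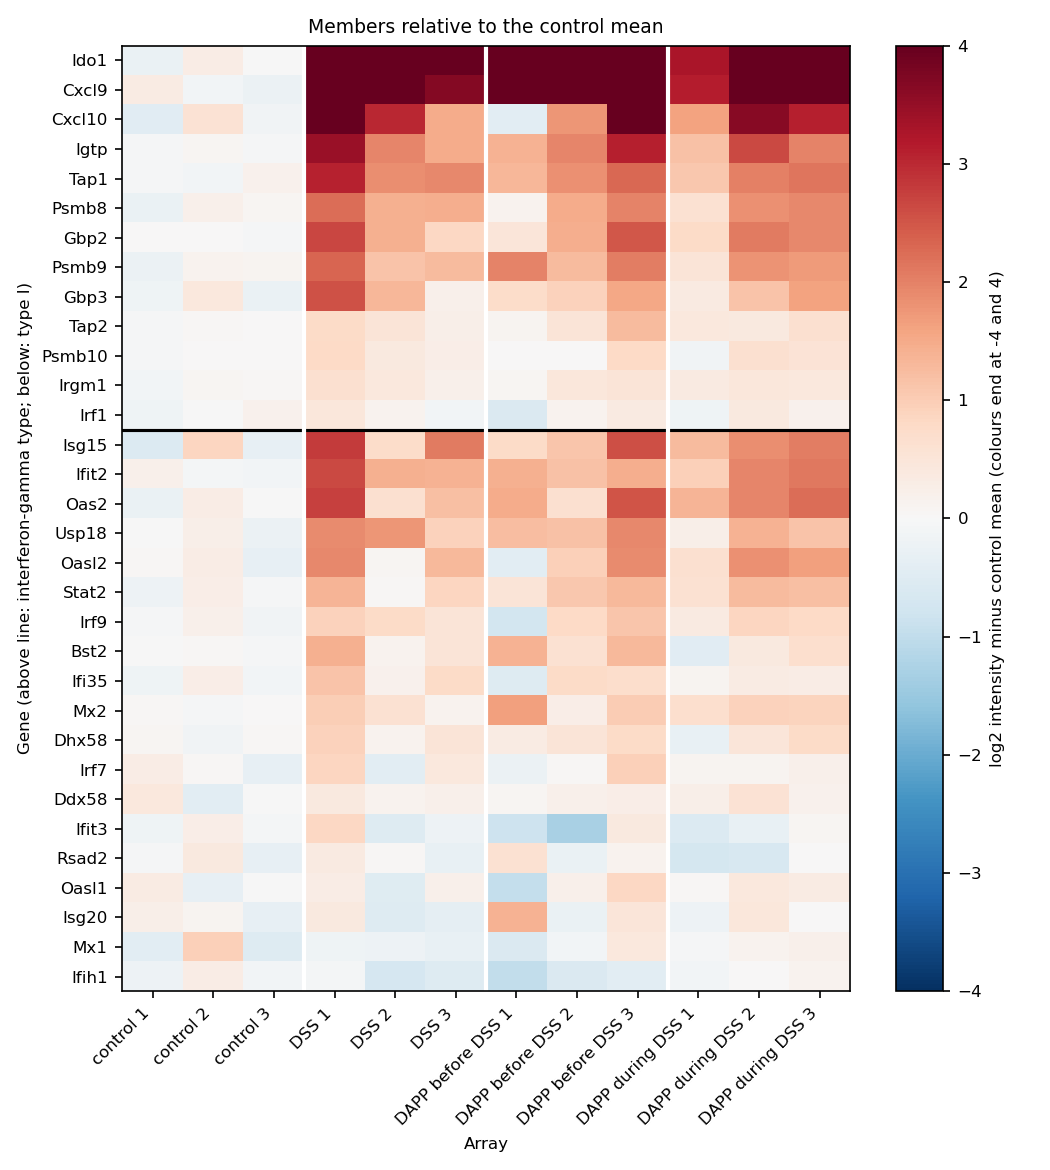
Rows are the 32 measured members (interferon-gamma type above the line, type I below), columns the 12 arrays, and colour the log2 intensity minus the control mean, with the scale ending at 4 in either direction. Ido1 and Cxcl9 are high on all 9 DSS-treated arrays, and the columns of DSS replicate 1 and of replicate 3 of DAPP before DSS hold the highest values of their groups for most genes.

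Replicate 1 of DAPP before DSS read differently from the rest for several members, picked here after their values were seen. Its 5 Irf1 probes read 12.40, 10.01, 7.06, 6.03 and 5.11, each the lowest of the 12 arrays for that probe. On this array Psmb9 (11.63), Isg20 (9.03) and Mx2 (6.24) were high, while Psmb8 (10.44), Irf9 (8.12) and Oasl2 (8.84) were low. Ifngr1 stood at 8.97 there and at 10.79 to 11.25 on the other arrays.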

How the data were processed

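RNA of 12 mouse colon samples was read on Illumina bead arrays. Signal intensities of 45281 probes on a linear scale and a detection p-value for each were deposited in the table of unnormalised data; 1949 blank lines were left out. Per the submitters' processing notes, GenomeStudio summarised the arrays, with no version or background handling stated. The authors' processed intensities (medians of 146.5 to 146.6) were used as an alternative. Intensities were corrected and normalised with limma's neqc (offset 16, log2; limma 3.58.1, R 4.3.3).

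Probes were named by the platform table (34885 with 1 symbol, 18 with several, 10378 with none listed), with symbols updated to GRCm38.p6 for 34807. Of 22359 kept probes, 18852 had 1 symbol, and for each of 11933 genes the brightest kept probe on average was used. The groups were fitted together (lmFit and eBayes, 8 residual and 3.95 prior degrees of freedom) with Benjamini-Hochberg adjustment over all genes at 0.05, in 6 comparisons. Where a gene was undetected in the dimmer group, the fold is a bound against the lowest detected signal, 5.18 to 5.70 on the log2 scale.

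The members and gene lists were chosen with earlier results of these data known. Every member is accounted for, array values are given for members past the threshold, and other genes are the smallest p of each list, with interferons, receptors, kinases and any further gene named chosen after its values were seen. Promoters are RefSeq's. The number of arrays limits the precision.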

Additional observations from a re-analysis of the deposited data

How the results depend on the processing

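Under 24 other settings per comparison, no called member changed sign. Among the members, 4 to 12 were called between DSS and control when 1 array was left out, 3 to 11 between DAPP before DSS and control, and 2 to 13 between DAPP during DSS and control. Array weights gave 15 and 19 members in the latter comparisons, with a weight of 0.117 for replicate 1 of DAPP before DSS. For DAPP during DSS, 3 were called without background correction, 3 with the authors' processed values, 3 with a detection p under 0.01 on all 12 arrays, and 16 when only the compared groups were fitted. Over the settings, calls over all genes reached 1815 (DAPP before DSS against control) and 3392 (DAPP during DSS against control). The main fit gave 1338 and 917, so the larger member counts alone do not show a change in the members. The interferon-gamma type median of DAPP before DSS against control was 0.93 without background correction, 0.92 with the authors' values, 2.13 with the mean of the pancreas genes added as a covariate, and 0.84 to 1.73 when 1 array was left out. The type I medians against control ranged from 0.28 to 0.68 and 0.18 to 0.53. The cause of these shifts was not tested. Between DSS and control the medians ranged from 0.27 to 0.70 (type I) and from 1.19 to 1.93 (interferon-gamma type) over the settings, and Ido1, Cxcl9, Tap1 and Ifit2 passed in each that measured them. The DAPP groups against DSS gave 0 members in every setting, with medians of -0.62 to 0.04 and -0.44 to 0.12 for the interferon-gamma type genes and -0.36 to 0.16 and -0.23 to 0.27 for the type I genes, so their signs depend on the arrays used. Between the DAPP groups the medians ranged from -0.26 to 0.11 (type I) and -0.30 to 0.26, and 1 gene, not a member, was called without replicate 1 of DAPP before DSS. Over all genes, calls ranged from 429 to 1523 (DSS against control), 706 to 1815 and 443 to 3392 (DAPP before and during DSS against control).

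The replicate numbers were fitted as a block although the samples share only a number (correlations of same-numbered arrays -0.32 to 0.40). With the replicate block 7 members were called between DSS and control, and 7 and 4 members between the DAPP groups and control. The ranges of calls over all genes given above include this fit, whose own calls over all genes are not given here. As those calls differ between settings, the counts of members alone do not show a change in the members. The slide as a block was not run, for lack of slide information.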
